A study of Mus musculus with 9 samples.

Results

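The subject is the core of transforming growth factor beta (TGF-beta) signalling in a mouse lung tumour line and its single-cell subclones: 10 genes, chosen by symbol from a table of 15768 genes. They are the 3 ligands Tgfb1, Tgfb2 and Tgfb3, the 3 receptors Tgfbr1, Tgfbr2 and Tgfbr3, and the 4 Smads Smad2, Smad3, Smad4 and Smad7. All 10 had values, and 9 of them passed the filter on low values and were tested. The ligand Tgfb2 was under the filter.

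RNA was sequenced from 9 libraries, 3 of each of 3 cell populations. SCC1 and SCC2 are subclones, each grown from 1 cell of LLC1 by limiting dilution. LLC1 is the parental line, established from a mouse Lewis lung carcinoma. All 3 lines carry the label WT and were untreated tumour cells, grown in DMEM with 10% fetal bovine serum and antibiotics at 37 °C and 5% CO2. SCC1 and SCC2 had been passaged 5 to 8 times, and for LLC1 the labels give no passage number. Each subclone is 1 clone, so its 3 libraries are repeats of that clone and not of subcloning. Whether the 3 libraries of a line were grown as separate cultures is not stated in the labels, and the p-values therefore cover the spread among these libraries alone, which may be technical. The medium was serum-containing, and serum itself carries TGF-beta.

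TGF-beta ligands are secreted as latent complexes and, once released, bring together the type II receptor Tgfbr2 and the type I receptor Tgfbr1, a serine/threonine kinase pair. The kinase then phosphorylates Smad2 and Smad3, which join Smad4 and enter the nucleus to change transcription. In carcinoma cells the pathway is known both for growth arrest and for driving a mesenchymal, matrix-producing state. The values below are transcript levels and say nothing of secreted ligand, receptor at the surface or Smad phosphorylation.

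The libraries held 17094808 to 19398657 fragments, worked back from the deposited values. Levels are given as FPKM, fragments scaled to transcript length and to library size, and differences on the log2(FPKM + 1) scale, which understates the change of low genes. A gene was called where the adjusted p of limma (Benjamini-Hochberg over 10519 genes) was under 0.05. Most genes of these lines met that rule, as the shares given with each comparison show. Markers of lung epithelium were near 0 in every line: 4 of a list of 7 were analysed, all under 1 FPKM, with sums of 0 to 0.139 FPKM in SCC1, 0 to 0.133 in SCC2 and 0.0379 to 0.144 in LLC1. Of the keratins of simple epithelium, Krt8 (155 FPKM in SCC1, 75.3 in SCC2 and 113 in LLC1) and its partner Krt18 (295 in SCC1, 157 in SCC2 and 223 in LLC1) were high. Krt19 (1.27 in SCC1, 0.333 in SCC2 and 1.40 in LLC1) and Krt7 (0.740 in SCC1, 0.0345 in SCC2 and 0.244 in LLC1) were low, and Cdh1, the epithelial cadherin, was at most 0.0132 FPKM. The carcinoma epithelial list they belong to (5 of 7 analysed) summed to 447 to 457 FPKM in SCC1, 232 to 233 in SCC2 and 333 to 342 in LLC1, the order of Tgfb1, and Krt8 and Krt18 made up nearly all of that sum. Endothelial markers (3 of 5 analysed) summed to at most 0.0295 FPKM in SCC1, 0.0137 in SCC2 and 0.0273 in LLC1.

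Transcript levels of the pathway differed between the 3 lines, among the 9 tested genes most for Tgfb1 and Tgfbr2. Against LLC1, the subclone SCC2 had lower levels of Tgfb1, Tgfb3, all 3 receptors, Smad3, Smad4 and Smad2. The ratios of SCC2 to LLC1 mean levels were 0.457 for Tgfb1 and 0.520 for Tgfbr2. Smad2 in SCC2 was no longer called once chromosome medians were subtracted. The subclone SCC1 had more Tgfb1, Smad2, Smad4 and Smad7 RNA than LLC1 and less of all 3 receptors and of Smad3. With chromosome medians subtracted, Smad2 and Smad7 were no longer called in SCC1, and Tgfbr1 turned. Tgfb3 was also higher in SCC1, by a call that some single libraries decided. In SCC1 against LLC1, 5 of the 9 tested genes were higher and 4 lower, where 70.1% of all genes tested were called, 39.2% higher and 30.9% lower. Libraries of SCC1 and LLC1 did not overlap for 8 of the 9, as for 72.3% of all genes. In SCC2 against LLC1, 8 were lower, none higher and 1 was not called, where 67.6% of all genes were called, 34.7% higher and 32.9% lower. Here the libraries did not overlap for any of the 9, as for 70.7% of all genes. In SCC2 against SCC1, 7 were lower and 2 higher, where 76.3% of all genes were called, 39.4% lower and 37.0% higher, and again none of the 9 overlapped, as 77.9% of all genes did not. Any 2 of these comparisons share the libraries of 1 line, so their results are not independent of each other.

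**Figure D1:**
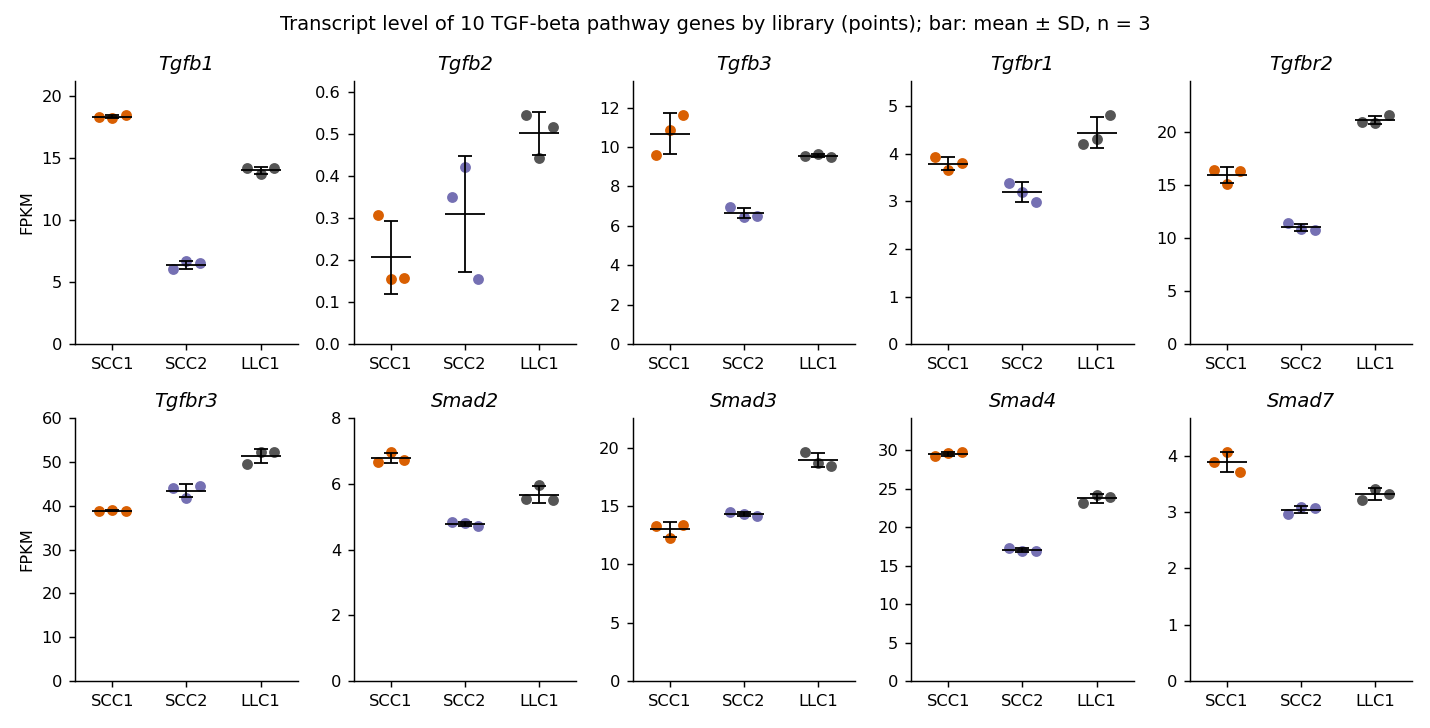
Transcript level (FPKM, linear axis from 0) of the 10 genes, 1 panel each, in the 3 libraries of SCC1, SCC2 and LLC1; points are libraries and the bar is the mean ± SD (n = 3). Tgfb1 ran from 6.04 to 6.68 FPKM in SCC2, below every SCC1 and LLC1 library, and Tgfb2 stayed under 1 FPKM in all 9.

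Among the ligands, Tgfb1 separated the lines most. Tgfb1 encodes the ligand that most tumour and immune cells make. It had 18.3, 18.2 and 18.5 FPKM in SCC1, 6.04, 6.68 and 6.51 FPKM in SCC2, and 14.2, 13.7 and 14.2 FPKM in LLC1, resting on 741 to 781, 240 to 274 and 533 to 583 fragments in a library of these lines. The 3 sets of libraries did not overlap, with SCC1 high and SCC2 low. The means were 18.3 ± 0.123 FPKM in SCC1, 6.41 ± 0.334 in SCC2 and 14.0 ± 0.286 in LLC1 (SD, n = 3 each). Tgfb1 rose in SCC1 by 0.36 ± 0.036 (log2 difference from LLC1 with its SE; limma adjusted p = 2.94e-06). It fell in SCC2, with a log2 difference of -1.02 ± 0.036 from LLC1 (limma adjusted p = 6.68e-10) and of -1.38 ± 0.036 from SCC1 (limma adjusted p = 2.05e-11). The difference between SCC2 and LLC1 was larger in size than that of 98.5% of all genes tested, where the median size was 0.163. Of a list of platelet and megakaryocyte genes, another cell type known for Tgfb1, 3 of 4 were analysed, 1 of them (Pf4, the defining platelet chemokine) under 1 FPKM throughout, and their sum followed the order of Tgfb1, at 4.30 to 5.42 FPKM in SCC1, 2.19 to 2.39 in SCC2 and 3.52 to 4.11 in LLC1. Ppbp, another platelet chemokine, had that order (3.54 in SCC1, 1.36 in SCC2 and 2.34 in LLC1), while the platelet integrin Itga2b averaged 1.20 FPKM in SCC1, 0.748 in SCC2 and 1.30 in LLC1. A list of macrophage and leukocyte genes, of which 5 of 10 were analysed and Csf1r and Lyz2 were under 1 FPKM, summed to 28.1 to 32.1 FPKM in SCC1, 18.8 to 19.3 in SCC2 and 15.9 to 17.3 in LLC1. Cd14 and Cd68 made up most of that sum, and Ptprc, Adgre1, Itgam, C1qa and Tyrobp of the list had no values. The order of the sum was that of Cd14, with 15.3 to 15.8 FPKM in SCC2 and 11.4 to 12.9 in LLC1. Cd68 had the order of Tgfb1, at 8.34 to 10.4 FPKM in SCC1, 2.78 to 3.22 in SCC2 and 3.84 to 4.505 in LLC1. Mrc1 was highest in SCC1, at least 1.895 FPKM, against at most 0.272 in SCC2 and 0.2999 in LLC1, which overlapped. SCC1 and SCC2 were each grown from 1 cell, and whether any line held such cells was not tested, nor was their part in the Tgfb1 levels. In bulk RNA fewer cells of a type and less RNA per cell cannot be told apart.

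Tgfb1 lies at chr7:25687002-25705077 on the plus strand (GRCm38, GENCODE M21), and its exons overlap those of no other annotated gene. The 20 tested genes within 1 Mb of it had a median log2 difference of -0.032 in SCC1 against LLC1 and -0.042 in SCC2 against LLC1, where 4 were higher and 7 lower in SCC1, and 2 higher and 6 lower in SCC2. Those genes were looked at after the Tgfb1 values were known. The promoter of Tgfb1 is shown because it is the member that differs most between lines. It is the RefSeq window of 250 bases before to 50 after the start (GRCm38.p6, chr7:25686752-25687051, plus strand), with capitals on matches to the GC box GGGCGG on either strand, a sequence bound by Sp1.
Tgfb1: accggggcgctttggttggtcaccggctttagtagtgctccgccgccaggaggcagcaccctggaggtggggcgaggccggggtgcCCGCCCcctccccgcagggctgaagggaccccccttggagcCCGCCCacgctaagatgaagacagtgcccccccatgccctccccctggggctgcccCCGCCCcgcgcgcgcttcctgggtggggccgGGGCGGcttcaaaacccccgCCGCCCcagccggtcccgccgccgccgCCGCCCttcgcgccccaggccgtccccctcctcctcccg
The window held 6 GC boxes and was 77% G and C, above 97.6% of the 32851 mouse promoters in the same set. At least 1 GC box is in 35.7% of them and at least 6 in 1.35%. It held no CAGAC, the core of Smad-binding elements, which 49.6% of those promoters hold, and no TGACTCA, an AP-1 site, which 5.20% hold.

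Tgfb3, a ligand best known from palate and epithelial development, followed the same order more weakly. It had 9.57, 10.8 and 11.6 FPKM in SCC1, 6.95, 6.47 and 6.51 FPKM in SCC2, and 9.53, 9.63 and 9.48 FPKM in LLC1. SCC2 was below all other libraries, while SCC1 and LLC1 overlapped. Tgfb3 fell in SCC2, with log2 differences of -0.46 ± 0.055 from LLC1 and -0.61 ± 0.055 from SCC1 (limma adjusted p = 1.55e-05 and 9.17e-07). The difference of 0.14 ± 0.055 between SCC1 and LLC1 passed the threshold (limma adjusted p = 0.0371), but the call did not hold when any of 5 libraries was left out. The limma adjusted p was then 0.0762, 0.0641 and 0.0822 without LLC1 libraries 1, 2 and 3, and 0.0977 and 0.164 without SCC1 libraries 2 and 3. Exons of Tgfb3 (chr12:86056745-86079041, minus strand) share 163 and 257 bases with Gm37804 and Gm48008 on the opposite strand, and the labels do not say if reads were counted by strand. Of the 15 tested genes within 1 Mb, 10 were lower and 2 higher in SCC2 against LLC1 (median -0.16). Against SCC1, 11 were lower and 1 higher in SCC2 (median -0.37). Of all genes, 32.9% and 39.4% were lower in these comparisons, and the chromosome 12 medians were 0.0033 and -0.0053. Those neighbours were looked at after the Tgfb3 values were known.

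Tgfb2, a ligand that needs betaglycan for efficient binding, was low in every library. It had 0.307, 0.155 and 0.158 FPKM in SCC1, 0.350, 0.422 and 0.156 in SCC2, and 0.545, 0.444 and 0.517 in LLC1, from 15 to 53 fragments in a library. LLC1 libraries were the highest, and the subclones overlapped each other. With no filter on low values its log2 differences were -0.32 in SCC1 and -0.20 in SCC2 from LLC1 (limma adjusted p = 0.0077 and 0.0583), and 0.12 between SCC2 and SCC1 (limma adjusted p = 0.256).

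The receptors were lower in both subclones than in LLC1, except that Tgfbr1 in SCC1 turned once chromosome medians were subtracted. Tgfbr2, the type II receptor that binds ligand first, had 16.4, 15.1 and 16.3 FPKM in SCC1, 11.4, 10.8 and 10.8 FPKM in SCC2, and 20.98, 20.9 and 21.6 FPKM in LLC1. No library of one line reached the range of another, and SCC2 was the lowest. Tgfbr2 fell in both subclones, with log2 differences from LLC1 of -0.39 ± 0.037 in SCC1 and -0.88 ± 0.037 in SCC2 (limma adjusted p = 2.33e-06 and 2.94e-09). It was also lower in SCC2 than in SCC1, by a log2 difference of -0.50 ± 0.037 (limma adjusted p = 1.61e-07). Tgfbr2 (chr9:116084293-116175360, minus strand) lies on chromosome 9, whose 584 tested genes had medians of -0.19 in SCC1 and -0.16 in SCC2 against LLC1. With chromosome medians subtracted, its differences were -0.21 and -0.73, both still called. The sum of a list of fibroblast genes was also highest in LLC1: 5 of 6 were analysed, 2 of them under 1 FPKM throughout. They summed to 6.38 to 6.53 FPKM in SCC1, 6.09 to 6.79 in SCC2 and 9.63 to 10.8 in LLC1. Pdgfra and Dcn made up most of that sum, and Pdgfra, Pdgfrb, Dcn and Col1a1 were each highest in LLC1. Lum was highest in SCC2, at 0.826 to 1.17 FPKM, against 0.0496 to 0.132 in SCC1 and 0.636 to 0.817 in LLC1. SCC1 and SCC2 were each grown from 1 cell, and the part of such cells in the receptor levels was not tested.

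The promoter of Tgfbr2, the receptor gene that differs most between lines, is given for the same window (GRCm38.p6, chr9:116175314-116175613, minus strand), with capitals on CAGAC, searched on both strands.
Tgfbr2: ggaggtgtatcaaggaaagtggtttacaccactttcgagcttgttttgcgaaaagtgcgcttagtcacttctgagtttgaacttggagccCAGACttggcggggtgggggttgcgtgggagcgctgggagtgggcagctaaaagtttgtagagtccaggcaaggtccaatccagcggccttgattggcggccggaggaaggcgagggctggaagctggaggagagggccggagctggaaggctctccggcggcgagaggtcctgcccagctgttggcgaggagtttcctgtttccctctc
This window held 1 CAGAC, no GC box and no TGACTCA, and was 59% G and C.

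Tgfbr1, the type I receptor kinase that phosphorylates Smad2 and Smad3, was the least abundant of the receptors. It had 3.92, 3.65 and 3.81 FPKM in SCC1, 3.39, 3.21 and 2.99 FPKM in SCC2, and 4.20, 4.32 and 4.81 FPKM in LLC1. The ranges did not overlap, and SCC2 was the lowest. Its log2 differences from LLC1 were -0.18 ± 0.053 in SCC1 and -0.38 ± 0.053 in SCC2 (limma adjusted p = 0.00978 and 6.67e-05), and -0.19 ± 0.053 between SCC2 and SCC1 (limma adjusted p = 0.00584). The direction in SCC1 turned with the account of the chromosome: Tgfbr1 (chr4:47353222-47414931, plus strand) lies on chromosome 4, whose 614 tested genes had a median of -0.33 in SCC1, the lowest of 20 chromosomes, and with chromosome medians subtracted it turned to 0.14 (limma adjusted p = 0.0353). The 9 tested genes within 1 Mb of Tgfbr1 were all lower in SCC1 than in LLC1, with a median of -0.68. In SCC2 against LLC1, 7 of those 9 were lower and 0 higher, with a median of -0.28, where the chromosome 4 median was -0.040. Over all of chromosome 4, 82.2% of tested genes were lower in SCC1 and 37.8% in SCC2, against 30.9% and 32.9% of all genes.

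Tgfbr3, or betaglycan, is a co-receptor without a kinase that presents ligand, above all Tgfb2, to Tgfbr2. It was the most abundant of the 10 genes per length, above 88.5% of all genes in the table in SCC1, 89.9% in SCC2 and 92.0% in LLC1. Its libraries had 38.9, 39.1 and 38.7 FPKM in SCC1, 44.1, 41.7 and 44.6 FPKM in SCC2, and 49.5, 52.2 and 52.3 FPKM in LLC1. Here SCC1 was the lowest and LLC1 the highest, with no overlap. The log2 differences from LLC1 were -0.39 ± 0.029 in SCC1 and -0.24 ± 0.029 in SCC2 (limma adjusted p = 2.88e-07 and 2.28e-05), and Tgfbr3 was higher in SCC2 than in SCC1 by 0.15 ± 0.029 (limma adjusted p = 4.49e-04). An exon of Tgfbr3 (chr5:107106570-107289629, minus strand) shares 297 bases with Gm43422 on the same strand, so a part of its fragments could be assigned to either gene.

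Smad2, Smad4 and Smad7 were higher and Smad3 lower in SCC1, while Smad2, Smad3 and Smad4 were lower in SCC2. With chromosome medians subtracted, Smad2 was no longer called in either subclone against LLC1. Smad7 was then no longer called in SCC1, and was higher in SCC2. Smad4, the partner shared by TGF-beta and BMP Smads, was the most abundant Smad of the 4. It had 29.3, 29.6 and 29.8 FPKM in SCC1, 17.3, 16.9 and 16.9 FPKM in SCC2, and 23.1, 24.2 and 23.9 FPKM in LLC1. Libraries of the 3 lines were fully apart, with SCC1 high and SCC2 low. Smad4 rose in SCC1 by 0.30 ± 0.026 and fell in SCC2 by a log2 difference of -0.46 ± 0.026 from LLC1 (limma adjusted p = 7.96e-07 and 3.03e-08). SCC2 differed from SCC1 by -0.76 ± 0.026 on the same scale (limma adjusted p = 1.81e-10).

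Smad2, a kinase substrate of Tgfbr1, had 6.67, 6.97 and 6.71 FPKM in SCC1, 4.84, 4.81 and 4.72 FPKM in SCC2, and 5.53, 5.96 and 5.50 FPKM in LLC1. Smad7, the inhibitory Smad that blocks the receptor and is itself induced by TGF-beta, had 3.88, 4.07 and 3.71 FPKM in SCC1, 2.97, 3.09 and 3.07 FPKM in SCC2, and 3.22, 3.42 and 3.33 FPKM in LLC1. Both were high in SCC1 and low in SCC2, with no overlap of libraries. For Smad2 the log2 differences were 0.22 ± 0.039 in SCC1 and -0.20 ± 0.039 in SCC2 from LLC1 (limma adjusted p = 2.73e-04 and 6.24e-04), and -0.43 ± 0.039 between SCC2 and SCC1 (limma adjusted p = 8.75e-07). For Smad7 they were 0.18 ± 0.043 in SCC1 (limma adjusted p = 0.00305), -0.095 ± 0.043 in SCC2, which was not called (limma adjusted p = 0.0681), and -0.27 ± 0.043 between SCC2 and SCC1 (limma adjusted p = 1.06e-04).

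Smad2, Smad4 and Smad7 all lie on mouse chromosome 18, within 2.68 Mb, and most tested genes of that chromosome moved with them: 76.9% were higher in SCC1 and 75.8% lower in SCC2 than in LLC1. Its 264 tested genes had a median log2 difference of 0.22 in SCC1 against LLC1, the highest of 20 chromosomes, of -0.22 in SCC2 against LLC1 and of -0.46 in SCC2 against SCC1, the lowest. Of the 10 tested genes between Smad4 and Smad2, 9 were higher in SCC1 than in LLC1 (median 0.21), 9 were lower in SCC2 than in LLC1 (median -0.27) and 10 were lower in SCC2 than in SCC1 (median -0.46). With chromosome medians subtracted, Smad2 differed by -0.012, 0.024 and 0.036 in the 3 comparisons, none of them called (limma adjusted p = 0.807, 0.617 and 0.433). Smad7 then turned to -0.060 in SCC1 and to 0.13 in SCC2 against LLC1 (limma adjusted p = 0.250 and 0.0205), and to 0.19 between SCC2 and SCC1 (limma adjusted p = 0.00193). Smad4 kept its direction at a smaller size, with 0.068 in SCC1, -0.23 in SCC2 and -0.30 between them (limma adjusted p = 0.0389, 1.26e-05 and 8.62e-07).

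**Figure D2:**
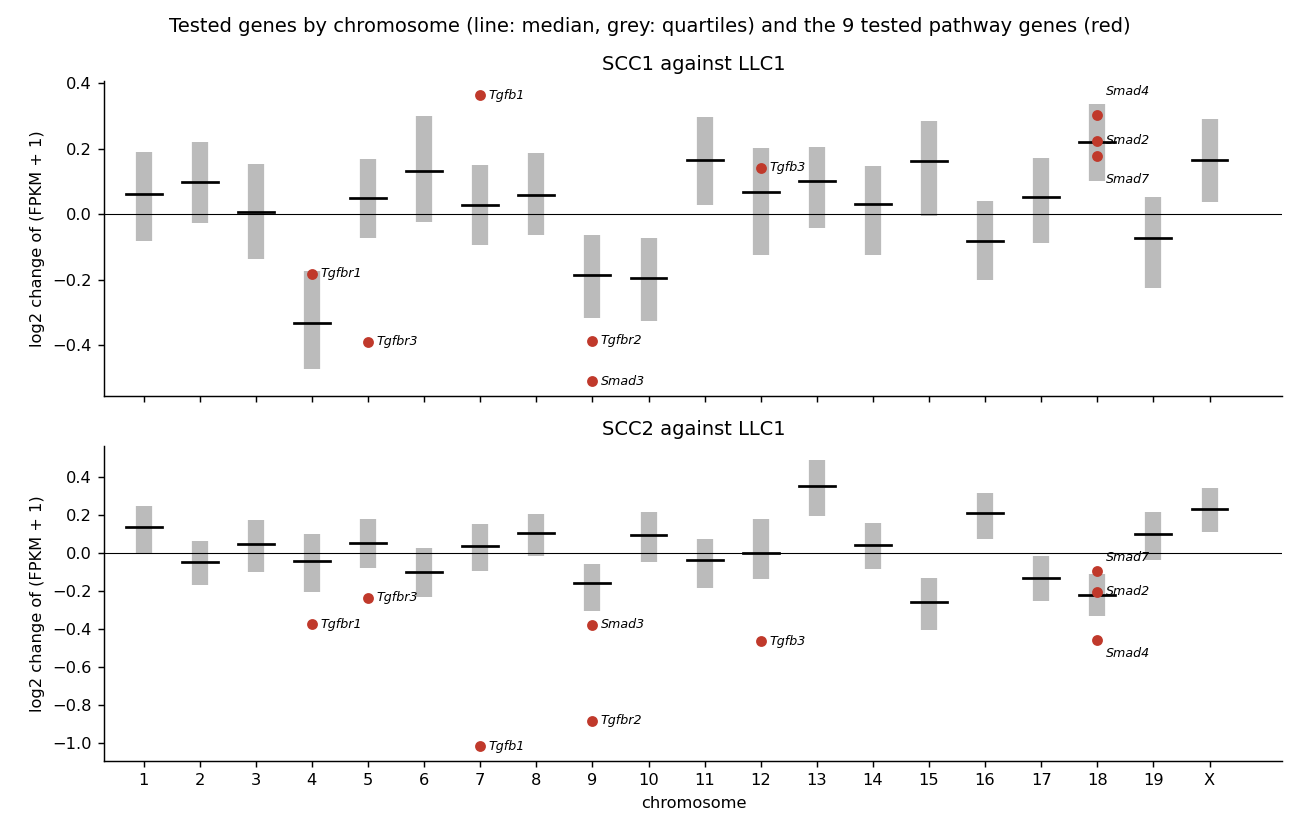
Log2 difference of (FPKM + 1) against LLC1 by chromosome (x axis), for SCC1 above and SCC2 below; black lines are medians over all tested genes of a chromosome, grey bars run from the 25th to the 75th percentile, and red points are the 9 tested pathway genes. On chromosome 18, whose median is 0.22 in SCC1 and -0.22 in SCC2, the 3 Smads sit within the grey bar in SCC1, but in SCC2 only Smad2 does, with Smad4 at -0.46 and Smad7 at -0.095 outside its ends of -0.33 and -0.11, while Tgfb1 lies far from the chromosome 7 medians of 0.027 and 0.039.

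Smad3, the receptor-activated Smad that binds DNA directly, was lower in SCC1, where the other Smads were higher. With chromosome medians subtracted, Smad2 (-0.012) and Smad7 (-0.060) were not called in SCC1, and only Smad4 (0.068) stayed higher. Smad3 had 13.3, 12.3 and 13.4 FPKM in SCC1, 14.5, 14.3 and 14.2 FPKM in SCC2, and 19.6, 18.7 and 18.5 FPKM in LLC1. Both subclones were below every LLC1 library, and SCC1 was the lowest, just under SCC2. The log2 differences from LLC1 were -0.51 ± 0.037 in SCC1 and -0.38 ± 0.037 in SCC2 (limma adjusted p = 1.92e-07 and 2.83e-06), and SCC2 was higher than SCC1 by 0.13 ± 0.037 (limma adjusted p = 0.00604). With the medians of chromosome 9, where Smad3 lies at chr9:63646767-63757994 on the minus strand, subtracted, they were -0.33, -0.22 and 0.11, all 3 still called.

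The Smad3 promoter is shown as that of the Smad whose direction in SCC1 parted from the rest before chromosome medians were subtracted. It is given for the same RefSeq window (GRCm38.p6, chr9:63757945-63758244, minus strand), with GC boxes in capitals.
Smad3: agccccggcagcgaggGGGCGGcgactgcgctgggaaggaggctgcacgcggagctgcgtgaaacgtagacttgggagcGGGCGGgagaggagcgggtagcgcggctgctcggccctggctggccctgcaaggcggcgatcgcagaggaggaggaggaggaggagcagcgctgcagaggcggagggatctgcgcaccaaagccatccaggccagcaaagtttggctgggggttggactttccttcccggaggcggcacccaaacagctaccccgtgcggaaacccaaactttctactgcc
It held 2 GC boxes, where at least 2 are in 19.5% of all promoters, no CAGAC and no TGACTCA, and was 67.7% G and C. RefSeq windows matched 5 of the 10 genes: Tgfb1, Tgfb2, Tgfbr1, Tgfbr2 and Smad3. A match of letters is a description and not a site of binding.

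**Figure D3:**
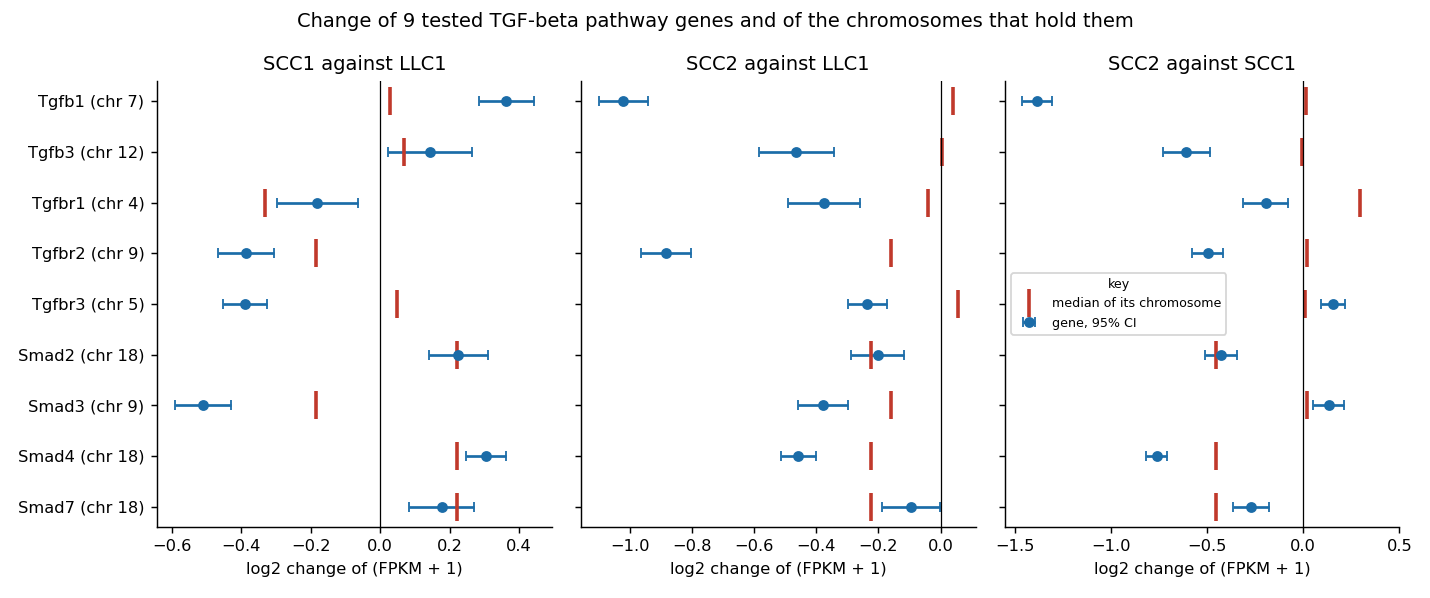
Log2 difference of (FPKM + 1) with its 95% confidence interval (blue) for the 9 tested genes in the 3 comparisons, with the median of all tested genes on the gene's own chromosome (red bar). Smad2 lies on its chromosome median in each panel, whereas Tgfb1 lies at -1.02 in SCC2 against LLC1 beside a median of 0.039.

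Because FPKM is per length, the make-up of each step can be set side by side within a library. Tgfb1 made up 62.8 ± 1.98% of the summed FPKM of the 3 ligands in SCC1, 48.0 ± 2.34% in SCC2 and 58.3 ± 0.565% in LLC1 (SD, n = 3 each). In SCC2 library 1 Tgfb3 was above Tgfb1 (6.95 against 6.04 FPKM), and in the other SCC2 libraries both ligands were about level. The share of Tgfbr1 in the sum of both kinase receptors was 19.2 ± 0.295% in SCC1, 22.5 ± 0.654% in SCC2 and 17.3 ± 0.795% in LLC1. Smad3 made up 65.7 ± 1.60% of Smad2 and Smad3 in SCC1, 74.9 ± 0.0969% in SCC2 and 77.0 ± 1.11% in LLC1. In none of these did libraries of 2 lines overlap, and each of the 9 differences had p = 0.1 in a two-sided exact permutation test (0.1 after Benjamini-Hochberg adjustment), the smallest that 3 libraries against 3 allow. The shares depend on the length used for each gene, which the values imply as 14179 bases for Smad2 and 5534 for Smad3. By fragments, SCC1 libraries held more of Smad2 (1738 to 1835) than of Smad3 (1261 to 1430). Libraries of SCC2 and LLC1 held more of Smad3.

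**Figure D4:**
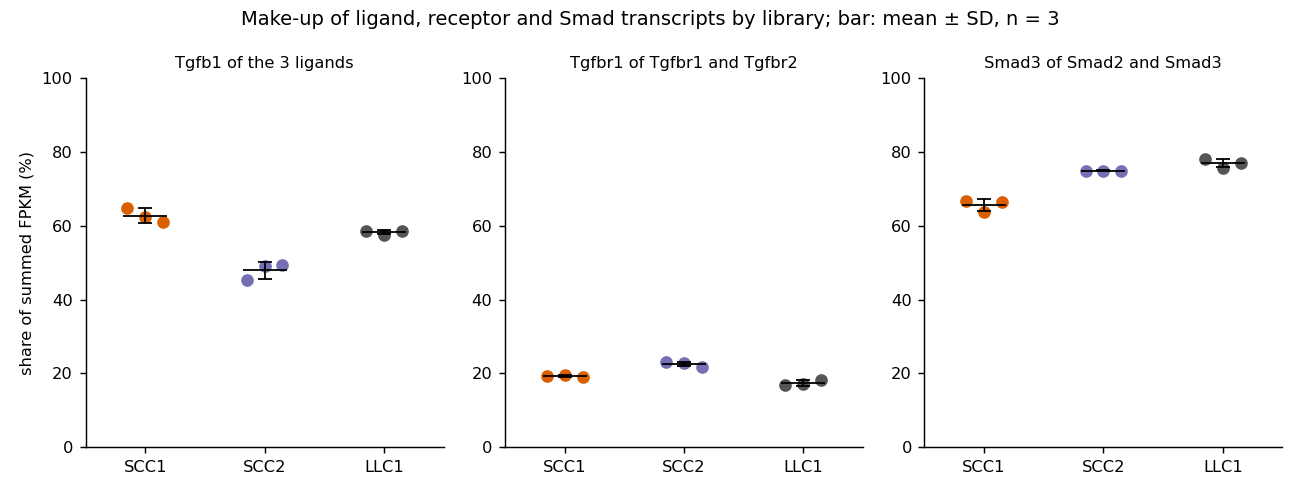
Share (% of summed FPKM) of Tgfb1 among the 3 ligands, of Tgfbr1 among both kinase receptors and of Smad3 among Smad2 and Smad3, by library (points) with mean ± SD (n = 3). SCC2 had the lowest Tgfb1 share (48.0%) and SCC1 the lowest Smad3 share (65.7%).

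By the order of line means, the 10 genes formed 3 groups. Tgfb1, Tgfb3, Smad2, Smad4 and Smad7 ran from SCC2 up through LLC1 to SCC1. Tgfbr1 and Tgfbr2 ran from SCC2 up through SCC1 to LLC1. Tgfb2, Tgfbr3 and Smad3 ran from SCC1 up through SCC2 to LLC1. The highest line mean was 2.86 times the lowest for Tgfb1, 1.92 times for Tgfbr2, 1.74 times for Smad4 and 1.61 times for Tgfb3, and between 1.28 and 1.46 times for the other 5 tested genes. For Tgfb2, under 1 FPKM and not tested, it was 2.43 times.

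The tested genes nearest in pattern to a member were found by the Euclidean distance over the 9 libraries of centred log2(FPKM + 1) values, for the 5 members whose line means spanned 0.5 or more. For Tgfb1 they were Adssl1 (distance 0.19), an enzyme of AMP synthesis, Rdh10 (0.25), a retinol dehydrogenase, and Nme4 (0.25), a nucleoside diphosphate kinase. For Tgfb3 they were Tarbp2, Ier5 and Maff (0.18 each). For Tgfbr2 they were Tmem205 (0.14), Sik1 (0.15) and Col18a1 (0.16), the last a basement membrane collagen. Tmem205 is on chromosome 9, as Tgfbr2 is. For Smad3 they were Dusp6 (0.098), a phosphatase acting on ERK, Cd276 (0.11) and the fibronectin gene Fn1 (0.12), of which Cd276 is on chromosome 9, as Smad3 is. For Smad4 they were Pop1 (0.070), Capg (0.10) and Map3k2 (0.10), of which Map3k2 is also on chromosome 18.

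Genes that hold, release or activate latent TGF-beta were mostly lower in SCC1. Of the 22 listed, 15 were tested: 11 were lower and 2 higher in SCC1 than in LLC1 (median -0.32, against 0.033 over all genes), 7 lower and 6 higher in SCC2 than in LLC1 (median -0.016, against 0.0075), and 12 higher and 3 lower in SCC2 than in SCC1 (median 0.19, against -0.0029). Of all genes, 30.9% were lower and 39.2% higher in SCC1 than in LLC1, 32.9% lower and 34.7% higher in SCC2 than in LLC1, and 37.0% higher and 39.4% lower in SCC2 than in SCC1. The count of 2 higher in SCC1 was 1 of 14 without any one of the SCC1 libraries, because Ltbp2 then fell under the filter. Ltbp2 passed the filter only through SCC1, where it is high: 1.13 to 1.35 FPKM, against 0.202 to 0.231 in SCC2 and 0.939 to 0.993 in LLC1. Its calls in these counts therefore lean on the group that admitted it. Thbs1, thrombospondin 1, which can release active TGF-beta, had a mean of 3.71 FPKM in SCC1, 25.8 in SCC2 and 12.6 in LLC1, with log2 differences from LLC1 of -1.53 in SCC1 and 0.98 in SCC2 (limma adjusted p = 3.36e-11 and 1.49e-09). Fbn1, the fibrillin that anchors latent complexes, averaged 3.63 FPKM in SCC1, 12.3 in SCC2 and 18.9 in LLC1, and fell in both (-2.10 and -0.58; limma adjusted p = 2.18e-12 and 5.82e-08). The latent binding protein Ltbp3 averaged 80.5 FPKM in SCC1, 127 in SCC2 and 129 in LLC1, and fell in SCC1 (-0.67, limma adjusted p = 5.58e-11). Integrin Itgb1 averaged 110 FPKM in SCC1, 177 in SCC2 and 148 in LLC1, falling in SCC1 and rising in SCC2 (-0.42 and 0.26; limma adjusted p = 5.52e-10 and 4.14e-08). The urokinase gene Plau averaged 68.6 FPKM in SCC1, 34.6 in SCC2 and 89.4 in LLC1, and fell in both subclones (-0.38 and -1.34; limma adjusted p = 1.78e-08 and 8.46e-13).

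Antagonists and negative regulators were split. Of 13 tested, 6 were higher and 5 lower in SCC1 than in LLC1 (median -0.0021, against 0.033 over all genes), and 4 higher and 5 lower in SCC2 than in LLC1 (median -0.043, against 0.0075). Either direction was called for 70.1% of all genes in SCC1 and 67.6% in SCC2 against LLC1. The count of 5 lower in SCC1 was 3 without SCC1 library 1 and also 3 without SCC1 library 2. Ski, a repressor of Smad-driven transcription, averaged 17.997 FPKM in SCC1, 27.8 in SCC2 and 32.9 in LLC1 (-0.84 in SCC1 and -0.24 in SCC2; limma adjusted p = 3.35e-10 and 1.44e-05). It lies on chromosome 4, whose median was -0.33 in SCC1 and -0.040 in SCC2 against LLC1. Vasn, vasorin, which binds TGF-beta outside the cell, averaged 23.7 FPKM in SCC1, 43.6 in SCC2 and 44.9 in LLC1, and fell in SCC1 (-0.89, limma adjusted p = 1.01e-10). Smurf1, a ubiquitin ligase that works with Smad7, averaged 23.8 FPKM in SCC1, 19.4 in SCC2 and 16.5 in LLC1, and rose in both (0.50 and 0.22; limma adjusted p = 1.63e-07 and 1.68e-04).

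Co-receptors, adaptors and positive regulators gave 5 higher and 11 lower of 19 in SCC1 against LLC1 (median -0.12, against 0.033 over all genes, of which 39.2% were higher and 30.9% lower), and 3 higher and 8 lower in SCC2 against LLC1 (median -0.014, against 0.0075 over all genes, of which 34.7% were higher and 32.9% lower). Zfyve9, the SARA anchor that brings Smad2 and Smad3 to the receptor, averaged 2.52 FPKM in SCC1, 4.05 in SCC2 and 4.10 in LLC1, and fell in SCC1 (-0.54, limma adjusted p = 2.18e-06). It lies on chromosome 4, whose median in SCC1 against LLC1 was -0.33. Dab2, an endocytic adaptor that links receptors to Smads, averaged 21.7 FPKM in SCC1, 11.6 in SCC2 and 23.9 in LLC1, and fell in both, more in SCC2 (-0.13 and -0.98; limma adjusted p = 0.00217 and 2.61e-10). It lies on chromosome 15, whose median in SCC2 against LLC1 was -0.26, the lowest of 20 chromosomes. Tgfb1i1, a focal adhesion protein, averaged 0.127 FPKM in SCC1, 4.43 in SCC2 and 2.15 in LLC1 (-1.48 in SCC1 and 0.78 in SCC2; limma adjusted p = 1.18e-09 and 3.01e-07). Eng, endoglin, averaged 31.6 FPKM in SCC1, 27.3 in SCC2 and 34.5 in LLC1, and fell in both (-0.12 and -0.33; limma adjusted p = 0.00477 and 2.59e-06). The list also holds Strap, which is known to hold receptors in check and not to promote signalling.

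Genes that TGF-beta is known to induce were lower more often than higher in SCC2. Of 30 tested, 6 were higher and 20 lower in SCC2 than in LLC1 (median -0.21, against 0.0075 over all genes, of which 32.9% were lower), 12 higher and 15 lower in SCC1 than in LLC1 (median -0.087, against 0.033, with 30.9% lower), and 12 higher and 14 lower in SCC2 than in SCC1 (median 0.026, against -0.0029, with 39.4% lower). Fn1, Itgav, Ltbp2 and Thbs1 are also in the latency list and Skil in that of antagonists. Ltbp2, which passed the filter only through SCC1, is counted here too, as higher in SCC1 and as lower in SCC2. Collagen Col3a1 averaged 257 FPKM in SCC1, 699 in SCC2 and 575 in LLC1 (-1.16 in SCC1 and 0.28 in SCC2; limma adjusted p = 3.56e-12 and 3.63e-07). Fn1 averaged 310 FPKM in SCC1, 335 in SCC2 and 449 in LLC1 and fell in both (-0.53 and -0.42; limma adjusted p = 7.20e-11 and 6.11e-10). Tpm1, a tropomyosin, averaged 142 FPKM in SCC1, 82.7 in SCC2 and 141 in LLC1, and fell in SCC2 (-0.76, limma adjusted p = 1.98e-10).

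Of 5 tested genes that TGF-beta is known to repress in epithelial cells, 2 were higher and 3 lower in SCC1 against LLC1 (median -0.15, against 0.033 over all genes), and 1 was higher and 4 lower in SCC2 against LLC1 (median -0.58, against 0.0075). Among all genes 30.9% were lower in SCC1 and 32.9% in SCC2 against LLC1. The lower ones included Id1, Id2 and Id3, inhibitors of basic helix-loop-helix factors that BMP Smads induce. Id1 averaged 32.1 FPKM in SCC1, 22.6 in SCC2 and 39.7 in LLC1, and Id3 57.5 in SCC1, 66.2 in SCC2 and 125 in LLC1. In SCC2 against LLC1 they fell by 0.79 and 0.91 on the log2 scale (limma adjusted p = 3.37e-07 and 1.29e-10). The higher ones were Myc in both subclones and Cdc25a in SCC1. Myc had 236 to 239 FPKM in SCC1, 227 to 236 in SCC2 and 181 to 189 in LLC1.

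The activin branch, which uses the same Smad2 and Smad3, had 7 tested genes. None was higher and 3 were lower in SCC1 against LLC1 (median -0.11, against 0.033 over all genes), a count that was 6 under median-of-ratios scaling, and 1 was higher and 5 lower in SCC2 against LLC1 (median -0.42, against 0.0075). The list mixes ligands and receptors with genes of inhibin and follistatin type. Those lower in SCC1 were Inha, Fstl1 and Fstl3, while the receptors Acvr1b and Acvr2b and the ligand Gdf11 were not called there. The lower ones in SCC2 included Fstl1 and Fstl3 as well as Acvr1b and Acvr2b. The all-gene shares lower than LLC1, 30.9% in SCC1 and 32.9% in SCC2, and higher, 39.2% in SCC1 and 34.7% in SCC2, apply here and to the BMP genes. Acvr1b, the type I activin receptor, averaged 14.5 FPKM in SCC1, 9.14 in SCC2 and 15.3 in LLC1, and fell in SCC2 (-0.69, limma adjusted p = 8.06e-09). Of the 5 tested BMP branch Smads and receptors, 2 were higher and 2 lower in SCC1 against LLC1 (median -0.049), and 4 were higher and none lower in SCC2 against LLC1 (median 0.15), but with chromosome medians subtracted the SCC2 counts were 1 higher and 2 lower. The count of 2 lower BMP genes in SCC1 was 1 without LLC1 library 2 or SCC1 library 3, and 1 gene was lower in SCC2 without LLC1 library 3, SCC1 library 1 or SCC2 library 3. Acvr1, a type I receptor for BMPs, averaged 12.2 FPKM in SCC1, 14.1 in SCC2 and 11.1 in LLC1.

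**Figure D5:**
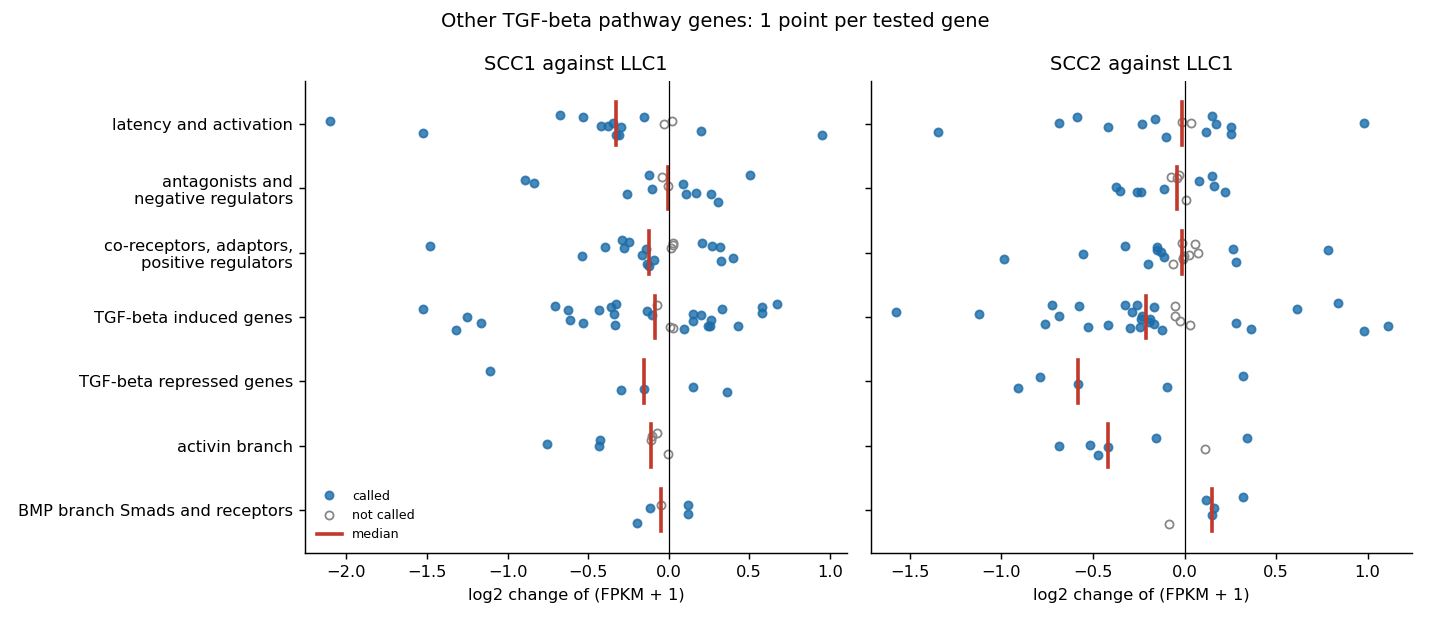
Log2 difference of (FPKM + 1) against LLC1 for the tested genes of 7 lists around the pathway, SCC1 on the left and SCC2 on the right; filled points passed limma's adjusted p of 0.05, open points did not, and the red bar is the list's median. Latency genes have a median of -0.32 in SCC1 and induced genes one of -0.21 in SCC2.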

How the data were processed

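RNA was sequenced in 3 libraries each of SCC1, SCC2 and LLC1. The authors deposited 1 table of FPKM values. The series' design text names cufflinks for the FPKM step, hisat2 for alignment and Trimmomatic for trimming, and its HTSeq-count and DESeq tests were not used here. The builds GRCm38 and mm10 come from the submitters' processing notes, and no versions of these tools are stated there. The labels' protocols name an RNeasy extraction and a SMARTER kit, the design text a mirVana extraction and a TruSeq stranded kit with 150 bp paired ends.

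Values were tested as log2(FPKM + 1) with limma 3.58.1 in R 4.3.3 (trend, robust), 2-sided, over the 10519 genes with at least 1 FPKM in at least 3 of 9 libraries, all 9 in 1 fit with the line as factor, adjusted by Benjamini-Hochberg. Shares were compared by exact permutation in scipy 1.17.1. Unused columns of per-sample values numbered 0. Fragments were worked back from the steps of the values: 100% of the 12270 genes above 0 in every library came out whole within 0.001 fragments, at 17094808 to 19398657 fragments a library, and fed a limma-voom alternative. A count of 3 fragments equals 0.0704 to 0.0798 FPKM for Tgfb1; such floors cover counting error only. Libraries of a line differed by somewhat more than counting noise (chi-square per gene 1.19 to 1.73 over 11057 genes). Each library was taken as 1 sample, but this spread cannot show whether the libraries were separate cultures. Scripts were tested on simulated data.

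Chromosomes were matched by symbol for 15661 of 15768 genes, positions come from GENCODE M21 and promoters from RefSeq GRCm38.p6. The members, the pathway and marker lists (macrophage, platelet, fibroblast, endothelial, lung and carcinoma epithelial) were chosen with earlier results of these data known, from general knowledge of the pathway. Genes named from a list were up to 4 called ones with the smallest adjusted p per comparison. Alternatives were the pseudocount, filters, scalings, moderation, chromosome medians, the replicate block, fragments, and leaving out each library.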

Additional observations from a re-analysis of the deposited data

How the results depend on the processing

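Of 507 alternative values for the 9 tested pathway genes, 488 kept their direction and their side of the 0.05 threshold, 11 kept their direction but lost the call, 1 gained it and 7 turned, that is, changed sign. All of the 7 came from subtracting chromosome medians: in SCC1 against LLC1 Tgfbr1 became 0.14, Smad2 -0.012 and Smad7 -0.060, in SCC2 against LLC1 Smad2 became 0.024 and Smad7 0.13, and in SCC2 against SCC1 they became 0.036 and 0.19. Of these, Smad2 in each comparison and Smad7 in SCC1 against LLC1 were no longer called after their change of sign. The cause was not tested. Genes of the lists that turned under it were Acvr2b (0.18), Nedd4l (-0.15) and Tab1 (-0.14) in SCC1 against LLC1, Bgn (-0.082), Cdc25a (0.058), Smad5 (-0.19), Strap (0.092) and Tgif1 (0.018) in SCC2 against LLC1, and Fstl1 (-0.020), Fstl3 (-0.27), Id3 (-0.090), Myc (0.39), Nedd4l (0.020), Smad5 (-0.044) and Tab2 (-0.0050) in SCC2 against SCC1. Quantile normalization turned Fn1 in SCC2 against SCC1 (-0.0024).

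Calls lost without a change of sign were all of Tgfb3 in SCC1 against LLC1, where the limma adjusted p ranged up to 0.169 over its alternatives. The call gained without a change of sign was Smad7 in SCC2 against LLC1 without trend and robust moderation (limma adjusted p = 0.0275). Leaving out each library in turn, 8 to 9, 8 and 9 of the tested pathway genes were called in SCC1 against LLC1, SCC2 against LLC1 and SCC2 against SCC1, and 6826 to 7298, 6633 to 7063 and 7612 to 7990 of all genes. Limma-voom on the recovered fragments called 7510, 7268 and 8159 of all genes, and 9, 8 and 9 of the pathway genes. With the replicate number as a block, 8, 8 and 9 pathway genes and 7306, 7046 and 7962 of all genes were called, and Tgfb3 in SCC1 against LLC1 missed the threshold (limma adjusted p = 0.0520). Deviations of libraries with the same number correlated by -0.068 to 0.089, so the numbers were not taken as pairs. At 15 to 53 fragments, depth limits what can be said of Tgfb2.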
